A study of Mus musculus with 8 samples.

Results

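The genes followed here are 8 genes known as targets of the transcription factor NF-kB or as genes of the acute-phase response: Cxcl1, Vcam1, Nfkbia, Lcn2, Cebpb, Itih4, Osmr and Tnfrsf12a. They were taken by name, through their Ensembl gene identifiers without version, from all 6 deposited tables, and are 8 of the 11447 gene identifiers listed there. The cells are smooth muscle from mouse ascending aortas, sorted for green fluorescent protein (GFP) after tissue digestion and profiled with 10x Genomics Chromium single-cell RNA sequencing. The KO libraries (titled SMC TGFbR2 ApoE, genotype TGFBetaRiSMC-Apoe) come from Apoe-deficient mice with a smooth muscle knockout of Tgfbr2, a receptor for TGF-beta. The Apoe libraries come from Apoe-/- mice, so every group lacks Apoe, and the groups differ in Tgfbr2 and in diet. Each genotype has 1 library on a diet labelled ND and 1 each after 1, 2 and 4 months of high fat diet (HFD), 8 libraries in all. The sex, age and number of the mice, the Cre that removes Tgfbr2 and the source of GFP are not given in the sources used here. Time on diet cannot be told apart from age.

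The libraries held 1127 to 2659 cells and 9407155 to 19719335 unique molecular identifiers (UMIs, 1 per captured RNA molecule), and 2 libraries shared at most 9 cell barcodes. No KO library has a Tgfbr2 value, so the genotype labels could not be checked from the targeted gene. The names of the deposited data carry noApoeTgfbr, so the missing value does not show that the transcript was absent. In 7 libraries all 14 contractile smooth muscle markers had values, and together they took 28299 (Apoe 4 months) to 54568 (KO ND) UMIs per 1000000 UMIs of the library (CPM). The KO library of 4 months stands apart: 12 of the 14 contractile markers had values there, at 2276 CPM in all, while 7 cartilage markers summed to 27108 CPM and all 1577 of its cells had UMIs of 3 or more of these 7. In Apoe mice at 4 months the cartilage markers summed to 4280 CPM, and 18.1% of cells had 3 or more. Macrophage markers summed to 454.7 CPM in KO at 1 month (6 of 10 with values), to 6.32 to 27.7 CPM in the other KO libraries, and had no value in any Apoe library. No marker of neutrophils (6 genes) or lymphocytes (7 genes) had a value in any library. Fibroblast markers, some of which modulated smooth muscle cells also express, summed to 101.4, 516.7, 3409 and 11948 CPM in KO and to 90.3, 109.0, 157.5 and 3887 CPM in Apoe from ND to 4 months.

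NF-kB proteins are held inactive by inhibitors of the IkB family until signals such as tumour necrosis factor or interleukin 1 lead to the destruction of the inhibitor. They then switch on chemokines, adhesion molecules and the gene of the inhibitor itself, a negative feedback. The acute-phase response is a change in secreted plasma proteins during inflammation, best known in liver, driven largely by cytokines of the interleukin 6 family through gp130 receptors, STAT3 and C/EBP factors. In the arterial wall, NF-kB targets such as VCAM1 take part in the recruitment of leukocytes in atherosclerosis.

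RefSeq promoter windows (GRCm38.p6, 250 bases before to 50 after the RefSeq start) matched 7 of the 8 genes. The gene positions given further on are those of GENCODE, whose gene span begins 513 bases before the RefSeq start in Lcn2 and 656 bases before it in Osmr. The windows of the 4 genes that hold a searched motif are shown as a description. Capitals mark the motif, and each window is written 5′ to 3′ on the strand of its gene.
Cxcl1 (chr5:90890995-90891294, plus strand, canonical kappaB consensus): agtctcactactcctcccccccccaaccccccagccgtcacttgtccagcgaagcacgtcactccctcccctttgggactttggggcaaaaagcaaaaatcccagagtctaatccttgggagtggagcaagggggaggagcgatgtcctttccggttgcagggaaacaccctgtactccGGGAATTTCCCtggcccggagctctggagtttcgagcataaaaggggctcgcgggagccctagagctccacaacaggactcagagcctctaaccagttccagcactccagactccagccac
Nfkbia (chr12:55492598-55492897, minus strand, canonical kappaB consensus): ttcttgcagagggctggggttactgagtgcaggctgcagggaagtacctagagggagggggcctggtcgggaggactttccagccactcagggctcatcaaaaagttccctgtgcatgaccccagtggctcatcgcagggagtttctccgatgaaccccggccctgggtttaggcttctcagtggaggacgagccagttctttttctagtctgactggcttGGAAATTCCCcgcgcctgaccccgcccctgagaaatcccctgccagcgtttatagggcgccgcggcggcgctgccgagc
Lcn2 (chr2:32387690-32387989, minus strand, C/EBP motif): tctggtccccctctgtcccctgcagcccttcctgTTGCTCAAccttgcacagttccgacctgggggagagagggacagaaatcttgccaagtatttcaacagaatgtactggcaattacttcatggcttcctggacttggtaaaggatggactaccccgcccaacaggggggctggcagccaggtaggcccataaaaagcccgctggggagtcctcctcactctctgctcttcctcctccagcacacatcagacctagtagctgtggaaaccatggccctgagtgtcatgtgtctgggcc
Itih4 (chr14:30886226-30886525, plus strand, STAT motif): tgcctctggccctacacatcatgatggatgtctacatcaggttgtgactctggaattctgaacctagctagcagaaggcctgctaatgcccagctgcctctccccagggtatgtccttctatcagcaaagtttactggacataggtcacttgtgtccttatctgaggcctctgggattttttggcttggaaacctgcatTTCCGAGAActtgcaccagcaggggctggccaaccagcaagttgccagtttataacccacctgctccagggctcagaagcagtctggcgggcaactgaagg

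The motifs searched, on both strands, were the canonical kappaB consensus, the STAT motif TTCNNNGAA and the C/EBP motif TTGCNNAA. The kappaB consensus was in the windows of 2 genes, and it is in 4.51% of the 32851 windows of 300 bases in the table. In Cxcl1 overlapping matches on both strands form the 1 palindromic run shown. The STAT motif was in 1 window (8.30% of all windows) and the C/EBP motif in 1 (10.8%). The windows of Cebpb, Osmr and Tnfrsf12a held none of these letters. A match describes letters in a window and not a bound site.

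Cxcl1 (ENSMUSG00000029380, chromosome 5, 90891241 to 90893115, plus strand, GRCm38) encodes a chemokine that attracts neutrophils. On ND it was listed at 0 in both time-course tables and had no column in the diet table. In KO libraries it stood at 100.3, 126.5 and 130.3 CPM after 1, 2 and 4 months of HFD, and in Apoe libraries at 15.8, 296.9 and 196.4 CPM. The order of the genotypes turned between diets: KO was above Apoe at 1 month and below it at 2 and 4 months. On the scale of log2(CPM + 1) the KO minus Apoe differences were 2.60, -1.23 and -0.59. A cell with any Cxcl1 UMI made up 14.1%, 18.1% and 23.7% of cells in KO, against 7.73%, 30.8% and 21.5% in Apoe. With every cell thinned to 2900 UMIs the 4-month shares were 10.8% in KO and 13.9% in Apoe, so the order of the shares at 4 months turned round once depth was made equal. A large share of the RNA lay in few cells: the 1% of cells with the most Cxcl1 held 78.9% of its UMIs in KO at 1 month, where 1 cell had 275 UMIs, and 40.1% to 54.1% in the other 5 libraries.

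The level of Cxcl1 in KO at 1 month lay in cells with markers of other cell types. Of its UMIs there, 63.6% were in 87 cells with 3 or more fibroblast markers (780.7 CPM), and 20.2% were in 103 cells with 2 or more macrophage markers (208.7 CPM). The remaining 1112 cells held 16.2% of the UMIs, at 19.8 CPM. That is close to the 15.8 CPM of the Apoe library of 1 month (95% Poisson interval 13.8 to 18.0), a value over all its cells. There 0 of 10 macrophage and 2 of 6 fibroblast markers had a value, so no cell could meet either rule on markers. The same 103 macrophage-marker cells held 86.5% of the library's UMIs of Cxcl2 and 50.4% of those of Ccl7, chemokine genes with a value in this library only. Both cell sets also held UMIs of Acta2, at 14299 CPM in the fibroblast-marker cells and 18959 CPM in the macrophage-marker cells, against 24853 CPM in the rest. Whether they are separate cells, doublets or smooth muscle cells in another state was not tested. The other members depended less on these cells: Vcam1 stood at 97.8 CPM in the remaining cells, against 146.2 CPM in the whole library, and the others kept 73.2% (Cebpb) to 88.5% (Itih4) of their UMIs there. This split was chosen after the values were seen.

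**Figure D1:**
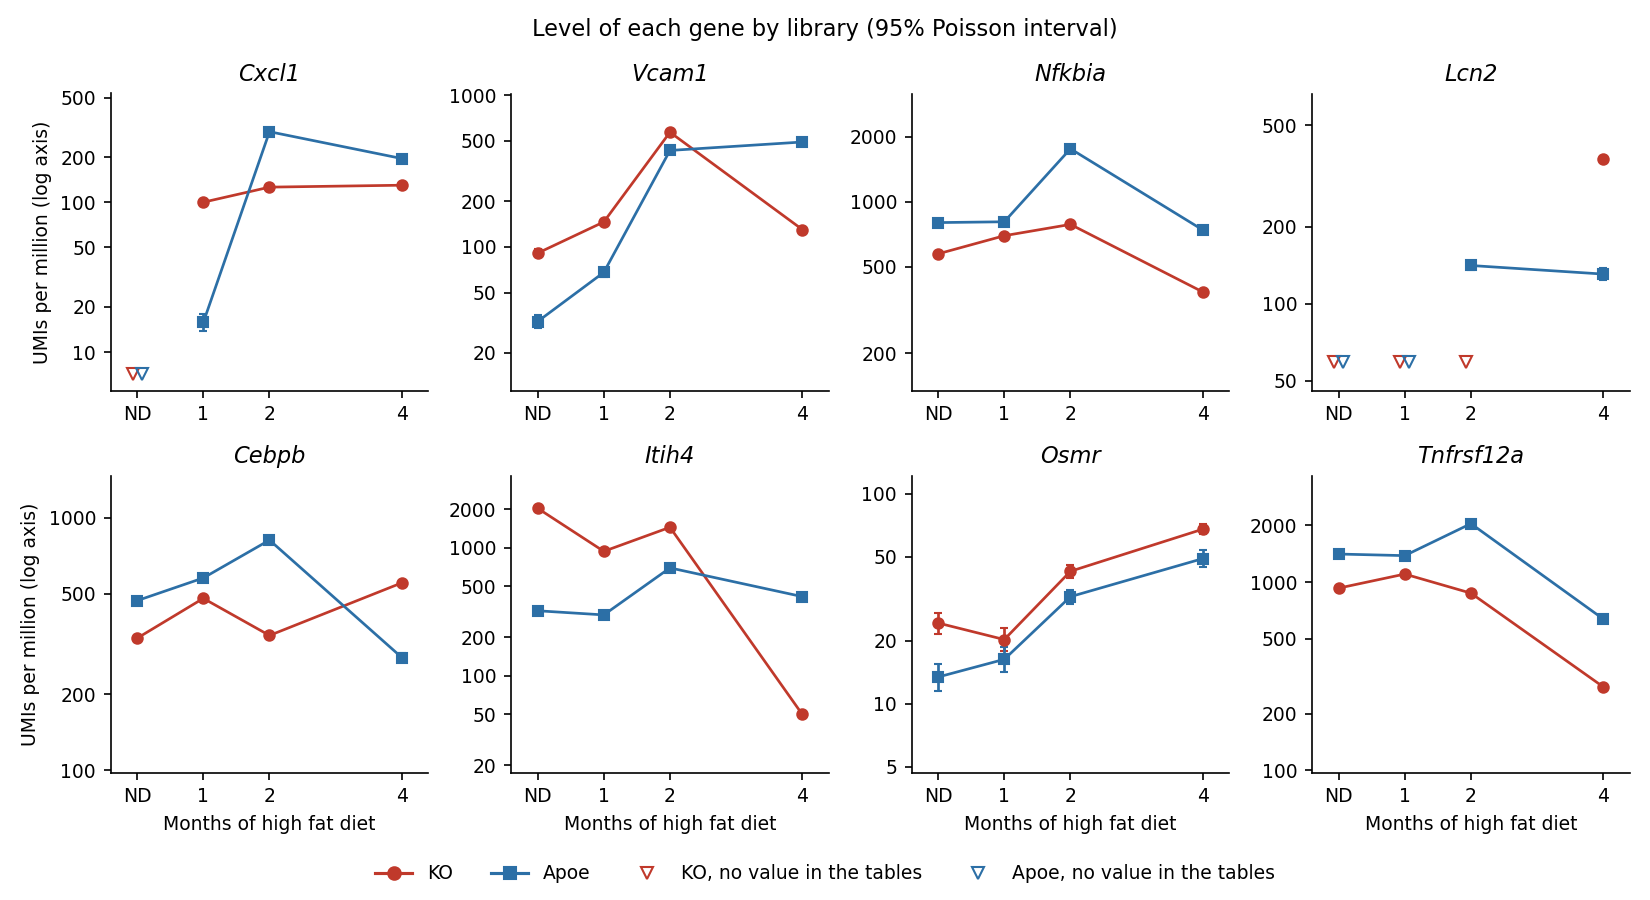
CPM (log axis) of each gene over months of high fat diet in KO (red circles) and Apoe (blue squares), 1 library a point, with 95% Poisson intervals that cover counting error only. Open triangles mark libraries with no value in the tables. Itih4 in KO drops to 49.9 at 4 months, and Lcn2 has values in 3 libraries only.

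Vcam1 (ENSMUSG00000027962, chromosome 3, 116109949 to 116129688, minus strand) encodes an adhesion molecule that leukocytes bind through an integrin. It stood at 91.0, 146.2, 570.7 and 130.3 CPM in KO from ND to 4 months, and at 32.3, 68.0, 432.8 and 491.9 CPM in Apoe. The genotypes took the same order on ND, 1 and 2 months, with KO above Apoe, and the other order at 4 months. The differences were 1.47, 1.09, 0.40 and -1.91. The share of cells with a UMI was 28.0%, 29.0%, 50.6% and 25.2% in KO against 9.89%, 15.7%, 43.4% and 42.2% in Apoe. Thinned to 1 depth the ND shares were 12.3% in KO and 3.53% in Apoe, and the 4-month shares 12.3% in KO and 29.9% in Apoe. The 1% of cells with the most Vcam1 held 26.2% (KO 2 months) to 68.45% (Apoe ND) of its UMIs. Its slope over months was 0.02 ± 0.10 (SE) in KO and 0.23 ± 0.10 in Apoe per month (adjusted p = 0.876 and 0.442, limma).

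Nfkbia (ENSMUSG00000021025, chromosome 12, 55489410 to 55492647, minus strand) encodes IkB-alpha, the inhibitor that NF-kB induces. It stood at 574.9, 697.2, 786.3 and 383.3 CPM in KO and at 801.7, 808.6, 1758 and 741.1 CPM in Apoe. KO was the lower library on each of the 4 diets, by 0.48, 0.21, 1.16 and 0.95 on the log2 scale. It was seen in 72.6% to 93.1% of cells in KO and in 89.0% to 97.0% in Apoe. Nfkbia belongs to a group of genes that tissue digestion can induce. The 17 genes of the dissociation response list all had a negative KO minus Apoe effect over the 4 diets, with a median of -0.39. The median over all genes was 0.01, and 0 of the 17 passed the test. The part of digestion in the values of Nfkbia was not tested.

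Cebpb (ENSMUSG00000056501, chromosome 2, 167688915 to 167690418, plus strand) encodes C/EBP-beta, a factor that drives acute-phase and inflammatory genes. It stood at 333.7, 479.8, 342.2 and 552.8 CPM in KO and at 470.0, 577.9, 816.2 and 279.8 CPM in Apoe. KO was lower on ND, 1 and 2 months and higher at 4 months, with differences of -0.49, -0.27, -1.25 and 0.98. The highest library was the one of 4 months in KO and of 2 months in Apoe.

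Lcn2 (ENSMUSG00000026822, chromosome 2, 32384633 to 32388252, minus strand) encodes lipocalin 2, a secreted protein that binds bacterial siderophores. It had values in 3 libraries: 369.5 CPM in KO at 4 months (95% interval 360.7 to 378.4), and 141.3 and 130.8 CPM in Apoe at 2 and 4 months. In the other 5 libraries it was listed at 0 or had no column, which means a UMI in under 5% of cells. At 4 months 49.6% of KO cells had a UMI, against 10.8% of Apoe cells (25.4% and 6.07% when thinned). The Apoe cells that had it carried 12.0 UMIs each at 2 months and 9.25 at 4 months, against 8.65 in KO at 4 months, so the library levels differed mainly in the number of cells. The 4-month difference was 1.49. The 1% of cells with the most Lcn2 held 32.0% of its UMIs in KO at 4 months, and 61.3% and 65.85% in Apoe at 2 and 4 months.

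Itih4 (ENSMUSG00000021922, chromosome 14, 30886476 to 30902353, plus strand) encodes inter-alpha-trypsin inhibitor heavy chain 4, an acute-phase plasma protein of liver. Its values had the widest range of any member within a genotype, with 2039, 939.2, 1448 and 49.9 CPM in KO from ND to 4 months. In Apoe it stood at 322.4, 299.3, 697.5 and 415.9 CPM. KO was above Apoe by 2.66, 1.65 and 1.05 on ND, 1 and 2 months, and the difference was -3.03 at 4 months. On ND 99.7% of KO cells and 78.7% of Apoe cells had a UMI (95.3% and 51.7% when thinned), and at 4 months 13.1% of KO cells and 66.6% of Apoe cells (6.21% and 48.0%). The 1% of cells with the most Itih4 held 47.7% of its UMIs in KO at 4 months, against 4.83% in KO on ND.

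Osmr (ENSMUSG00000022146, chromosome 15, 6813577 to 6874969, minus strand) encodes the receptor subunit that pairs with gp130 to bind oncostatin M. It stood at 24.2, 20.2, 42.7 and 67.8 CPM in KO and at 13.4, 16.3, 32.4 and 49.1 CPM in Apoe. KO was above Apoe on each diet, by 0.81, 0.30, 0.39 and 0.46, and the counting intervals of the pair overlapped at 1 month. In both genotypes the libraries of 2 and 4 months were above those of ND and 1 month. Cells with Osmr had 1.14 to 1.75 UMIs each, so its level is mostly the share of cells seen: 21.3%, 15.0%, 25.8% and 45.0% in KO and 11.1%, 13.4%, 18.8% and 27.1% in Apoe. Thinned shares were 7.28%, 5.76%, 11.5% and 16.2% in KO and 3.96%, 4.64%, 8.91% and 12.0% in Apoe.

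Tnfrsf12a (ENSMUSG00000023905, chromosome 17, 23675445 to 23677468, minus strand) encodes Fn14, the receptor of the cytokine TWEAK. It stood at 928.5, 1103, 873.4 and 277.6 CPM in KO and at 1409, 1382, 2043 and 636.7 CPM in Apoe. KO was the lower library on every diet, by 0.60, 0.33, 1.23 and 1.20 on the log2 scale. The 4-month library was the lowest of each genotype, with a UMI in 68.6% of KO cells and 80.0% of Apoe cells (41.2% and 62.6% when thinned).

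The libraries of 1 diet were compared without a test, because each is 1 library. On ND 2 of the 6 members listed in both libraries differed by at least 1 on the log2 scale, against 2.12% of 9608 genes (0.749% higher, 1.37% lower), and both (Vcam1 and Itih4) were higher in KO. At 1 month 3 of 7 did (1.53% of 9348 genes, 0.76% higher and 0.77% lower), all higher in KO: Cxcl1, Vcam1 and Itih4. Without the fibroblast- and macrophage-marker cells described above the differences were 0.31 for Cxcl1, 0.52 for Vcam1 and 1.75 for Itih4, so 1 of 7 was left (1.66% of genes). Cells were left out of KO alone, since no Apoe cell could meet the rules on markers. At 2 months 5 of 7 differed by at least 1 (3.33% of 8711 genes, 1.16% higher and 2.17% lower). Itih4 was higher in KO, and Cxcl1, Nfkbia, Cebpb and Tnfrsf12a were lower by 1.16 to 1.25. At 4 months 4 of 8 did (23.6% of 8624 genes, 6.59% higher and 17% lower), Lcn2 higher in KO and Vcam1, Itih4 and Tnfrsf12a lower. Genes in general differed more at 4 months: the middle 90% of all genes ran from -1.85 to 1.15 at 4 months, against -0.63 to 0.48 on ND.

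**Figure D2:**
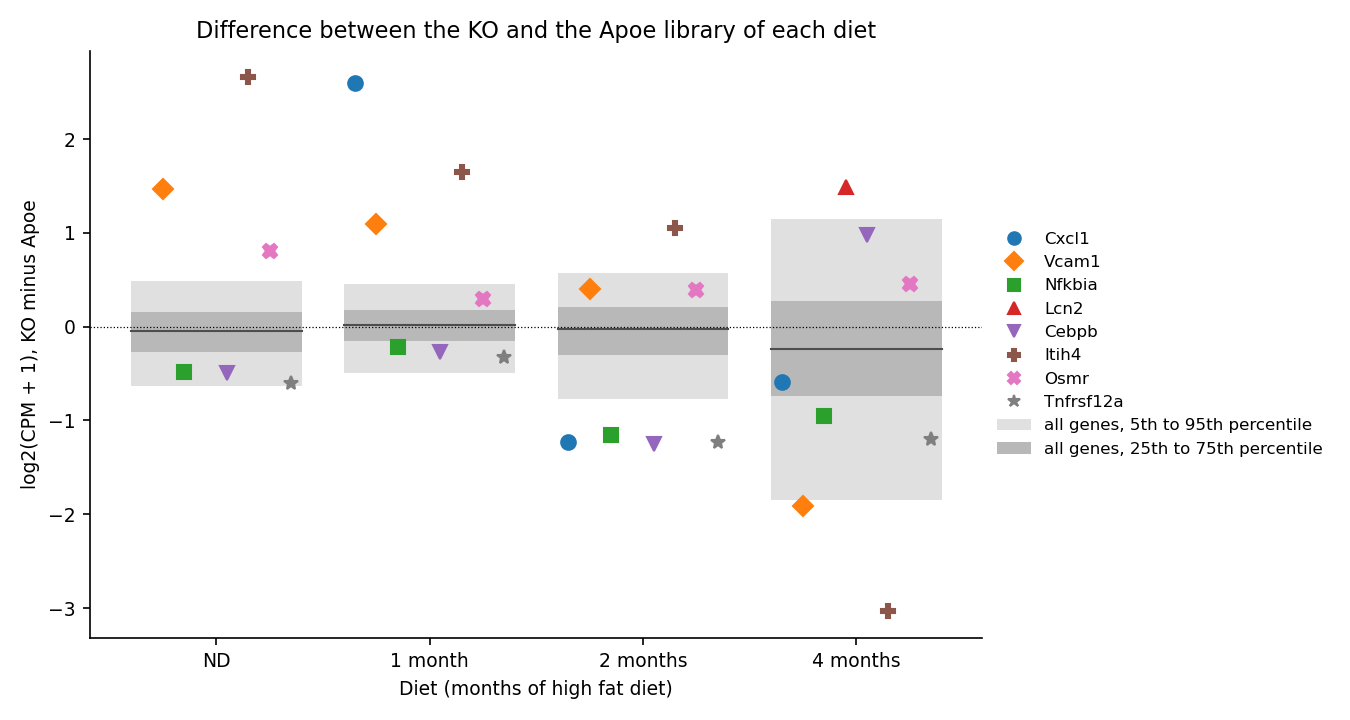
KO minus Apoe difference of log2(CPM + 1) for each gene with values in both libraries of a diet (coloured symbols), over the 5th to 95th and 25th to 75th percentile of all genes listed in both (grey bands, black line at the median). Vcam1 and Itih4 lie above the band on ND and 1 month and below it at 4 months, and Cxcl1, Nfkbia, Cebpb and Tnfrsf12a lie below it at 2 months.

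Over the 4 diets together, the comparison of genotypes asks what loss of Tgfbr2 does to these genes whatever the diet. None of the 8 members passed (0 of 8), where 14 of 9253 genes did (0.151%, with 0.0216% higher and 0.13% lower; limma on the mean log2 value per library, with diet in the model, Benjamini-Hochberg adjusted p under 0.05). At an unadjusted p under 0.05 the test reached 1298 genes. The lowest adjusted p was that of Nfkbia, with an effect of -0.58 ± 0.14 (SE; adjusted p = 0.227, limma). Tnfrsf12a had the same effect size, -0.58 ± 0.16 (adjusted p = 0.254, limma), and both were lower in KO in 4 of 4 pairs. Osmr was higher in 4 of 4 pairs, by 0.11 ± 0.04 (adjusted p = 0.354, limma). Effects are differences of the mean log2 value over cells, zeros included, and are no fold changes. Without the 4-month pair 240 genes passed (0.973% higher and 1.62% lower) and Vcam1 was among them, with an effect of 0.24 (adjusted p = 0.0496, limma), and Itih4 had an effect of 1.57, against 0.87 ± 0.66 with all pairs.

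The time courses ask how the genes change over months of HFD. In a slope common to both genotypes Osmr rose by 0.08 ± 0.02 per month (adjusted p = 0.0471, limma), the 1 member of 8 that passed. Of 9253 genes 14 rose (0.151%) and 500 fell (5.4%), 5.55% in all. The call of Osmr was lost when any 1 library other than the Apoe library of 4 months was left out (slopes of 0.05 to 0.09 per month), and it held in 4 of 18 alternatives. Tnfrsf12a had a slope of -0.37 ± 0.09 (adjusted p = 0.0656, limma).

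Within KO, 3 members passed: Osmr rose by 0.10 ± 0.02 per month (adjusted p = 0.0312), Lcn2 by 0.26 ± 0.06 (adjusted p = 0.0421) and Itih4 fell by 0.90 ± 0.15 (adjusted p = 0.0253; limma, 4 residual degrees of freedom). In the same fit 6.8% of genes rose and 15.7% fell, 22.5% in all, so a call within KO is common. Each of these 3 calls was lost without the KO library of 4 months (adjusted p = 0.501, 1 and 0.391, limma), where Itih4 had a slope of -0.52, and each was lost without the library of 1 month (adjusted p = 0.0646, 0.103 and 0.0608). All 3 were also lost with cells thinned to 1 depth (adjusted p 0.0522 to 0.0637) and with ranks of time in place of months (0.0920 to 0.142), and that of Lcn2 on the scales made from UMI sums (0.0715 to 0.0909; limma). The slope of Lcn2 rests on listings at 0 in 3 of 4 KO libraries. Lcn2 also reached the mean share of cells needed for a fit only through KO at 4 months. Its entry thus favoured a rise within KO, so its call cannot be weighed against the share of all genes that rose. Within Apoe 0 of 9253 genes passed (0%), and 1165 had an unadjusted p under 0.05. There Osmr had a slope of 0.06 ± 0.02 (adjusted p = 0.347, limma). The difference of slopes passed for 0 genes (0%; 1954 at an unadjusted p under 0.05), so no member was shown to change differently with time in the 2 genotypes. Itih4 had the largest such difference of the 8, -0.91 ± 0.21 per month (adjusted p = 0.226, limma).

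To ask which cells of a library carry the genes, cells were split at the library median of the share of UMIs in the contractile list. Among the less contractile cells 7 of the 8 members were higher (median difference 0.69, against 0.01 over all genes), where 22.5% of 9186 genes were higher and 21.5% lower, 43.9% in all (limma on the within-library difference of log2(CPM + 1), contractile UMIs left out, libraries as replicates). Cebpb was higher by 0.80 ± 0.12 (SE, 8 libraries; adjusted p = 0.00241, limma), in 7 of 8 libraries. Vcam1 was higher by 1.86 ± 0.49 (adjusted p = 0.0126, limma), also in 7 of 8. In Apoe at 4 months, for example, Vcam1 stood at 872.7 CPM in the less contractile cells and 76.8 CPM in the more contractile cells. Cxcl1 was higher by 1.95 ± 0.50 in 5 of the 6 libraries that list it (adjusted p = 0.0149, limma), and Lcn2 by 3.17 ± 0.71 in 3 of 3 (adjusted p = 0.0168, limma). Tnfrsf12a was higher by 0.57 ± 0.15 (adjusted p = 0.0138), Nfkbia by 0.31 ± 0.10 (adjusted p = 0.0258) and Osmr by 0.42 ± 0.13 (adjusted p = 0.0286; limma). Itih4 ran the other way, with -0.66 ± 0.36 (adjusted p = 0.159, limma), lower in 7 of 8 libraries.

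The KO library of 4 months was the exception to most of these differences. It had Vcam1 at 47.7 CPM in the less and 219.8 CPM in the more contractile cells, against the direction in the other 7 libraries. Itih4 had the same direction there as in 6 of the others, but a wider gap, at 6.44 and 97.1 CPM. The sets are not alike: contractile UMIs were 1.405% to 4.09% of all UMIs in the less contractile cells of the other 7 libraries. In KO at 4 months they were 0.0398% in the less and 0.429% in the more contractile cells. Without this library the differences were 2.44 for Vcam1 (adjusted p = 3.305e-05), 2.38 for Cxcl1 (adjusted p = 0.00241), 0.92 for Cebpb (adjusted p = 6.077e-05) and -0.22 for Itih4 (adjusted p = 0.0730; limma). Lcn2 could not be tested without it, since 2 libraries were left. The call of Nfkbia was lost without the KO library of ND, 1 or 2 months or the Apoe library of 4 months (adjusted p 0.0536 to 0.0644, limma). That of Osmr was lost without the KO library of 2 months or the Apoe library of ND, 2 or 4 months (adjusted p 0.0502 to 0.0680), and with cells thinned to 1 depth (0.0683).

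**Figure D3:**
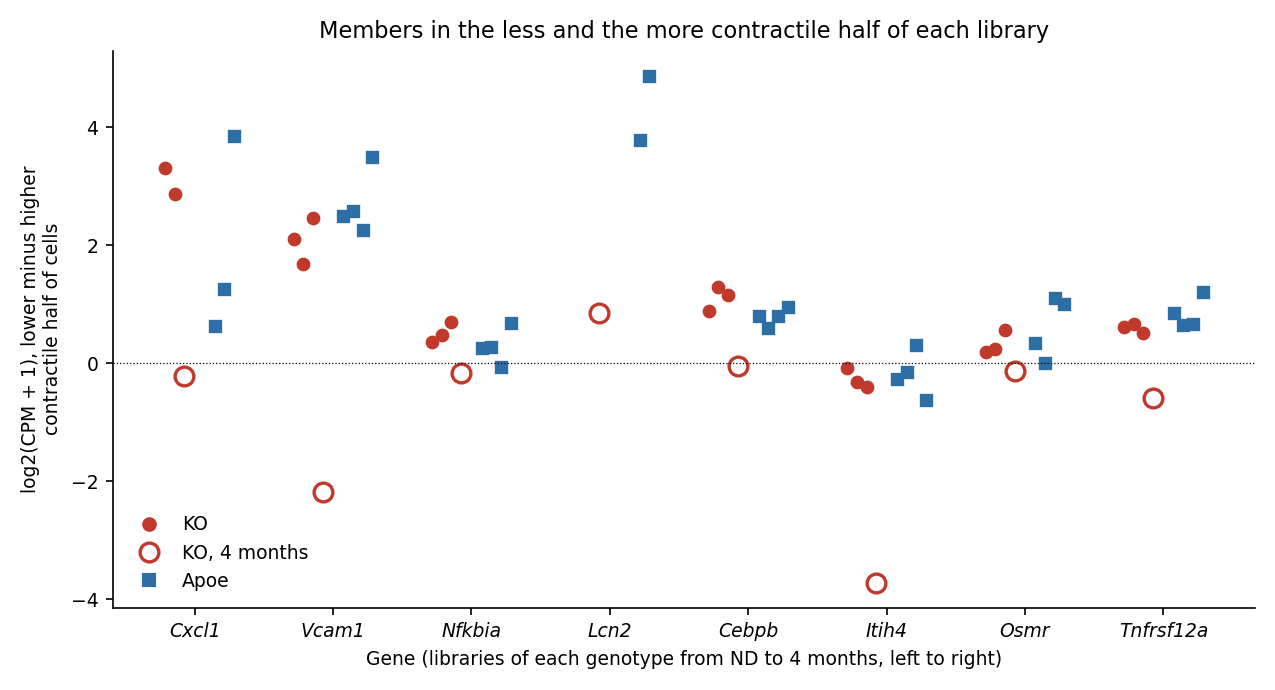
Difference of log2(CPM + 1) between the less and the more contractile cells of each library, for KO (red circles, the library of 4 months as a large open circle) and Apoe (blue squares). Points above 0 are higher in the less contractile cells; Cebpb, Vcam1, Tnfrsf12a and Osmr are above 0 in all libraries other than KO at 4 months.

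Since the contractile markers were low in KO at 4 months, its cells were also split by their share of UMIs in the cartilage list, a split chosen after the values were seen and given without a test. The cartilage-rich cells, above the median share, had Vcam1 at 15.6 CPM, against 281.2 CPM in the cartilage-poor cells, and Cxcl1 at 38.7 CPM against 252.5 CPM. Itih4 stood at 7.60 CPM in the cartilage-rich cells and 105.8 CPM in the other, and Nfkbia at 207.2 and 626.6 CPM. Cebpb was level, at 567.4 and 569.3 CPM, Lcn2 stood at 288.4 and 493.5 CPM, and Osmr at 76.9 and 60.8 CPM. Cells with a UMI were 13.9% of the cartilage-rich and 36.6% of the cartilage-poor cells for Vcam1, and 20.0% and 27.4% for Cxcl1. For Lcn2 they were 48.8% and 50.4%. In this library the 16 cells with the most Vcam1 held 55.2% of its UMIs, and the 16 with the most Cxcl1 held 54.1%. The CPM of these genes thus rest in large part on few cells. In Apoe at 4 months the same split gave Vcam1 at 625.9 CPM in the cartilage-rich cells and 351.3 CPM in the other, Cxcl1 at 273.1 and 115.3 CPM, and Lcn2 at 200.8 and 56.2 CPM. Vcam1, Cxcl1 and Lcn2 were thus higher in the cartilage-poor cells of KO and in the cartilage-rich cells of Apoe at that time, though the sets are not alike: cartilage UMIs were 4.09% and 0.933% of all UMIs in the cartilage-rich and cartilage-poor cells of KO, and 0.814% and 0.00769% in those of Apoe. In KO at 2 months the same split gave Cxcl1 at 125.7 CPM in the cartilage-rich cells and 127.7 CPM in the cartilage-poor cells, and Vcam1 at 591.5 and 549.9 CPM, so the KO order at 4 months is that of 1 library. Median depth was 12972 and 9044 UMIs a cell in the cartilage-rich and cartilage-poor cells of KO at 4 months.

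**Figure D4:**
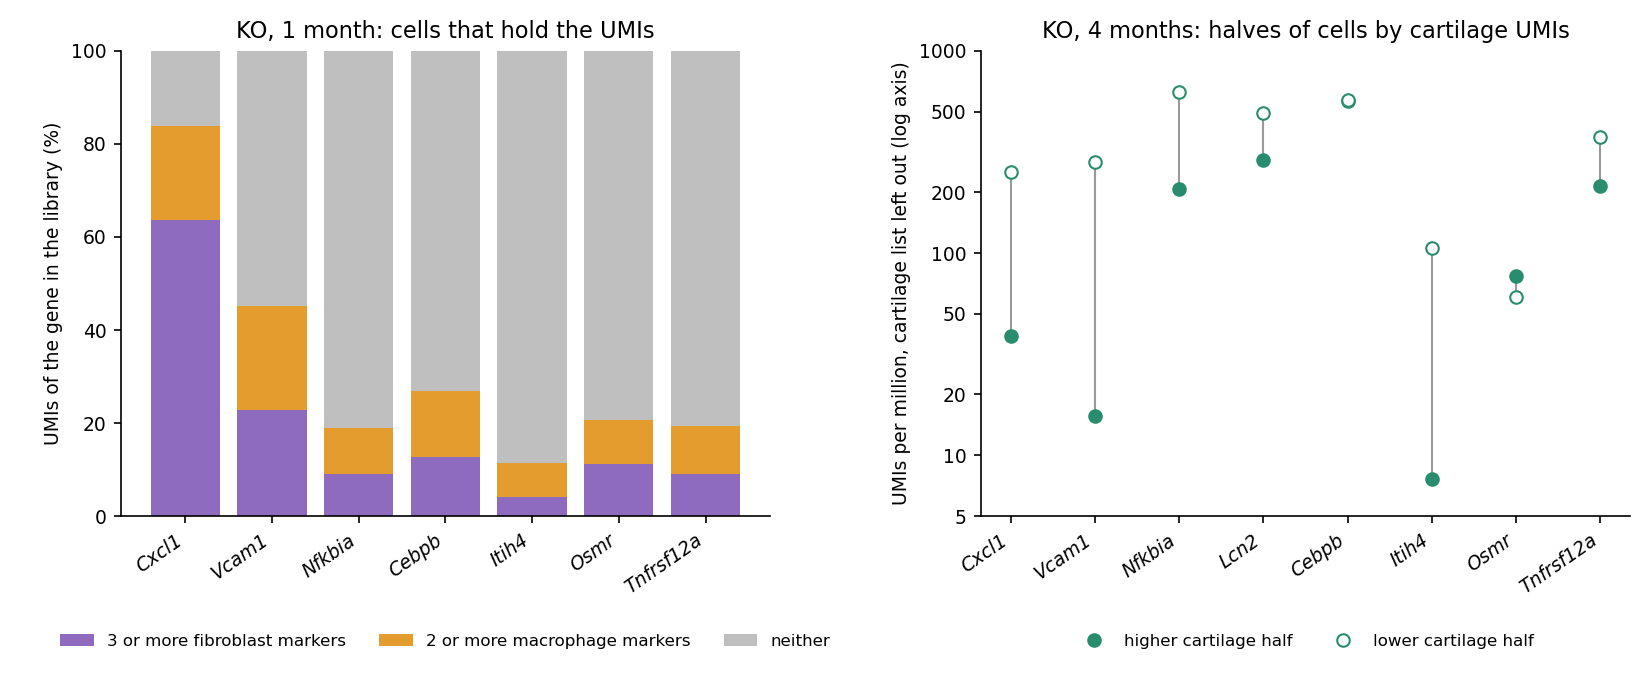
Left, percent of each gene's UMIs in KO at 1 month that lay in cells with 3 or more fibroblast markers, in cells with 2 or more macrophage markers, and in the rest. Right, CPM (log axis) in the cartilage-rich (filled) and the cartilage-poor (open) cells of KO at 4 months. Most Cxcl1 UMIs of the left panel lie in the 87 and 103 marker cells, and Vcam1 and Itih4 are far lower in the cartilage-rich cells of the right panel.

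Members were also looked for in the same cells, thinned to 2900 UMIs, as a description. Cxcl1 and Vcam1 were seen together more often than the product of their shares in 6 of 6 libraries, by a ratio of 1.37 to 2.09. The cells that held both ran from 6 in Apoe at 1 month to 261 in Apoe at 2 months, with 16 in KO at 1 month. Cxcl1 and Lcn2 were seen together at a ratio of 1.29 to 2.92 in 3 of 3 libraries, and Vcam1 and Lcn2 at 1.44 to 2.61. Vcam1 and Itih4 had a median ratio of 0.97 over 8 libraries (0.81 to 2.57), the highest in KO at 4 months, where 31 cells held both. Free RNA in droplets adds to such shares, and the sort holds no cell type known to lack these genes, so its part was not tested.

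Across the 8 libraries the members did not share 1 pattern. Among those listed in all 8, Pearson's r of log2(CPM + 1) was highest for Nfkbia with Tnfrsf12a (0.845), and lowest for Osmr with Tnfrsf12a (-0.739). Of 7994 genes listed in all 8 libraries, those with the pattern most like a member were S100a6 (r = 0.990), Elob and Trappc1 for Itih4, and Pafah1b1 (r = 0.998), Btbd10 and Wsb1 for Tnfrsf12a. For Osmr they were Dnajc1 (r = 0.967), Timp1 and Polr2l, and for Vcam1 Tmod3 (r = 0.962), Atg3 and Crlf2. For Nfkbia they were Stx3 (r = 0.963), Rbm27 and Map2k3os, and for Cebpb Yrdc (r = 0.969), Fbxo34 and Zfp655. S100a6 stood at 4309, 3264, 3790 and 1097 CPM in KO and 2328, 2249, 2540 and 2422 CPM in Apoe, the same order as Itih4 within each genotype. With 8 libraries, which share the one that stands apart, such values describe a pattern and no more.

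The acute-phase list holds 24 other genes, of which 11 have a column in the tables and 6 were tested. Within KO 4 of the 6 rose over months and 0 fell (6.8% and 15.7% of all genes): Serpina3n (a serine protease inhibitor) by 0.43 ± 0.08 per month, Hp (haptoglobin, which binds free haemoglobin) by 0.45 ± 0.11, Cp (ceruloplasmin, a copper-carrying oxidase) by 0.37 ± 0.08 and the complement component C3 by 0.16 ± 0.04 (adjusted p 0.0264 to 0.0411, limma). Hp had values at 4 months only, at 532.1 CPM in KO and 35.1 CPM in Apoe, in 77.4% and 5.18% of cells. Serpina3n stood at 410.7 CPM in KO and 91.6 CPM in Apoe at 4 months, and Cp at 242.2 and 64.8 CPM, while C3 was level at 93.7 and 96.7 CPM. Lbp, which binds bacterial lipopolysaccharide, had a value in KO at 4 months alone (58.1 CPM). The median slope of the 6 within KO was 0.26, against -0.0049 over all genes, and over the 4 diets 0 of 6 passed between genotypes. Hp, Serpina3n and C3 reached the 5% mean share of cells needed for a fit only through KO at 4 months. Their entry thus favoured a rise within KO, so the count and the median of the 6 cannot be weighed against all genes. Like Lcn2, Hp, Serpina3n and Cp were highest in the library that stands apart, and C3 in Apoe at 4 months. Without the KO library of 4 months 0 genes passed within KO (limma; 1537 at an unadjusted p under 0.05), so no call within KO, in this list or another, holds without it.

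**Figure D5:**
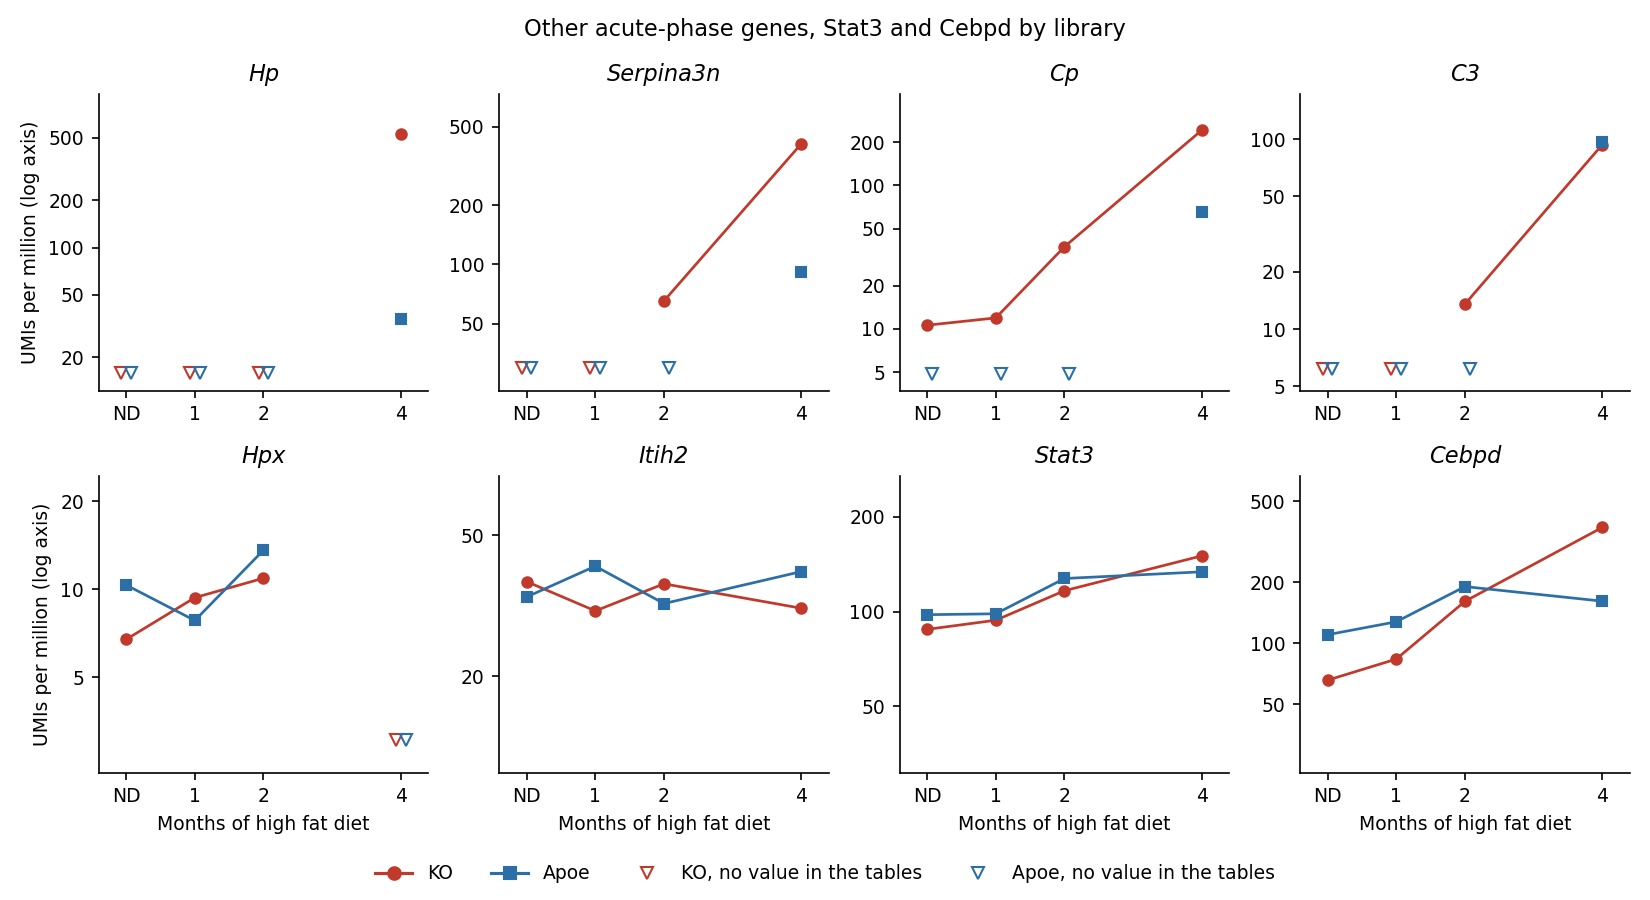
CPM (log axis) of 6 other acute-phase genes and of Stat3 and Cebpd over months of high fat diet in KO (red circles) and Apoe (blue squares), 1 library a point. Open triangles mark libraries with no value in the tables; Hp, Serpina3n and Cp are highest in KO at 4 months.

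Of the other NF-kB targets 18 of 28 have a column and 14 were tested. Between genotypes 0 of 14 passed, and the largest effects were those of Gadd45b (-1.03 ± 0.15), a stress-response gene, Ier3 (-0.48 ± 0.06), Irf1 (-0.25 ± 0.03), all with adjusted p = 0.158 (limma), and Mmp3 (0.19 ± 0.08, adjusted p = 0.404). Gadd45b stood at 854.0, 1280, 973.6 and 197.7 CPM in KO and at 1805, 1796, 2494 and 903.5 CPM in Apoe, with KO lower on each diet, as for Nfkbia. Within KO 3 of 14 rose and 1 fell, 4 called in all where 22.5% of all genes were (6.8% rose and 15.7% fell): Ptgs2 (cyclooxygenase 2) by 0.23 ± 0.05 per month, Tnfaip2 by 0.16 ± 0.04 and the matrix protease Mmp3 by 0.10 ± 0.02 rose, and the chemokine Cxcl12 fell by 0.27 ± 0.07 (adjusted p 0.0394 to 0.0445, limma). Mmp3 had values in KO on ND, 2 and 4 months (46.9, 157.1 and 158.2 CPM) and in no Apoe library. Mmp3 and Tnfaip2 reached the 5% mean share of cells needed for a fit only through KO at 4 months. Their entry thus favoured a rise within KO, so the count of rises cannot be weighed against the share of all genes. Ptgs2 stood at 192.9 CPM in KO and 142.2 CPM in Apoe at 4 months. Icam1, an adhesion molecule beside Vcam1, had values at 4 months only, 48.2 CPM in KO and 9.46 CPM in Apoe, where Vcam1 had the other order. Among the less contractile cells 7 of 13 tested were higher and 0 lower (22.5% and 21.5% of all genes), Mmp3, Ptgs2 and Tnfaip6 by the most.

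Of the NF-kB subunits, kinases and regulators 22 of 25 were tested and 0 passed between genotypes. Cyld, a deubiquitinase that restrains NF-kB, fell within KO by 0.06 ± 0.01 per month (adjusted p = 0.0193) and in the common slope by 0.05 ± 0.01 (adjusted p = 0.0420; limma), the 1 call of the list in either (15.7% and 5.4% of all genes fell). Tnfaip3 (A20), another inhibitor that NF-kB induces, stood at 7.51, 8.33 and 8.91 CPM in KO at 1, 2 and 4 months, with no value on ND, and at 8.23, 7.31, 29.3 and 20.0 CPM in Apoe from ND. Its highest library was Apoe at 2 months, as for Nfkbia. Among the less contractile cells 12 of 22 were higher and 1 lower (22.5% and 21.5% of all genes), among them Bcl3 by 0.79 ± 0.15, Rel by 0.56 ± 0.15 and Nfkb1 by 0.48 ± 0.11 (adjusted p = 0.00355, 0.0133 and 0.00595, limma).

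Of the gp130, JAK-STAT3 and C/EBP list 12 of 15 genes were tested. Within KO 4 of 12 rose and 0 fell (6.8% and 15.7% of all genes): Cebpd by 0.26 ± 0.04 per month, Stat3 by 0.13 ± 0.02, Cebpz by 0.11 ± 0.03 and Cebpg by 0.09 ± 0.02 (adjusted p 0.0193 to 0.0457, limma). Cebpd stood at 65.8, 83.6, 160.9 and 372.0 CPM in KO and at 110.2, 127.6, 190.2 and 161.2 CPM in Apoe, so that KO was lower until 2 months and higher at 4 months, as for Cebpb. Among the less contractile cells 6 of 12 were higher, Cebpa (0.98 ± 0.19), Cebpg, Cebpz, Cebpd, Jak1 and Stat3, and 2 were lower, Il11ra1 and Pias3 (22.5% and 21.5% of all genes). Socs3, a feedback inhibitor of STAT3 signalling, had the largest effect between genotypes, -0.26 ± 0.04 (adjusted p = 0.158, limma), and is also in the dissociation list.

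Of the receptors of the tumour necrosis factor and interleukin 1 families 9 of 14 were tested and 0 passed between genotypes. Within KO Tnfrsf11b (osteoprotegerin, a decoy receptor) rose by 0.89 ± 0.17 per month and Tlr2 by 0.14 ± 0.03, while Tnfsf12 fell by 0.16 ± 0.02 and Tlr4 by 0.02 ± 0.01 (adjusted p 0.0210 to 0.0469, limma). These are 2 of 9 in each direction, where 6.8% of all genes rose and 15.7% fell. Tnfsf12 encodes TWEAK, the ligand of the receptor that Tnfrsf12a encodes. Tnfsf12 stood at 92.2, 81.2, 79.1 and 8.96 CPM in KO and at 64.9, 65.4, 53.7 and 63.6 CPM in Apoe, so ligand and receptor were both lowest in KO at 4 months. Among the less contractile cells 5 of 9 were higher (22.5% of all genes), Tnfrsf11b (1.61 ± 0.47), Tlr2 (1.29 ± 0.33), Il1r1, Ripk1 and Tlr4, and Tnfsf12 was lower (21.5% of all genes), by 0.34 ± 0.10 (adjusted p 0.0112 to 0.0375, limma).

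The dissociation response list, immediate early and heat shock genes that tissue digestion can induce, had its 17 genes tested, and 0 passed between genotypes. Fosb had the lowest adjusted p of these, with an effect of -0.82 ± 0.06 (adjusted p = 0.0749, limma). Atf3 fell by 0.29 ± 0.06 per month in the common slope (adjusted p = 0.0493, limma). Within KO 5 of 17 fell and 0 rose (15.7% and 6.8% of all genes): Hspb1 by 0.59 ± 0.12 per month, Dusp1, Hspa1a, Egr1 and Jund (adjusted p 0.0285 to 0.0414, limma). Among the less contractile cells 4 of 17 were higher (Hspa1b, Fosb, Dnajb1 and Jund) and 3 lower (Btg2, Hspb1 and Dusp1), shares near the 22.5% and 21.5% of all genes. The part of digestion in the values of Nfkbia, Cebpb, Cxcl1 and Tnfrsf12a was not tested.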

How the data were processed

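Single-cell RNA sequencing of 8 libraries (2 genotypes, 4 diets, 1 library each) was deposited as 6 tables of cells by genes, 4 by diet and 2 by genotype. The names of the deposited data hold the words count and tmm, and the authors' values fit log2(scaled UMIs + 1). UMI-tools, STAR, featureCounts, Subread 1.6.0 and GRCm38 are named in the submitters' processing notes. Once the log2 scale was undone, each cell held only whole multiples of its lowest entry (100% of entries, tolerance 0.01), which were taken as UMIs. A gene seen in under 5% of a library's cells is listed at 0 and enters the fits as 0. No such gene is given a fold change.

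CPM are recovered UMIs per 1000000 UMIs of the library, and intervals (95%, exact Poisson) cover counting error only. The depth was 9407155 to 19719335 UMIs per library. Levels of different genes were not compared. Of 11447 gene identifiers 11439 were matched to a symbol. All deposited per-sample columns were used. No doublet caller was run.

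Fits used limma 3.58.1 (R 4.3.3) on genes with a mean share of cells of at least 5%, with Benjamini-Hochberg adjustment over all of them and a threshold of 0.05. Libraries, never cells, were the replicates. In the genotype fit a p-value measures the spread between diets left by the model, and in the slope fits the scatter around a line in months. In the contractile comparison it measures the spread of the within-library difference between libraries. Genotype was fitted with diet as a factor, and slopes with months of HFD as a number. The slope within each genotype comes from the fit of the difference of slopes. The fits were also run on simulated data, with independent noise of at most the median spread over genes. That run does not show how the fits perform on genes with a wider spread.

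The members and lists were chosen with earlier results of these data known. Named are all members, the list genes that pass a test, at most 4 more per list with the largest genotype effect, and the 3 genes most like each member. Alternatives were other scales, pseudocounts, filters, tables and time codes, cells thinned to 2900 UMIs, and each library left out.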

Additional observations from a re-analysis of the deposited data

Results flagged for a closer look

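The KO minus Apoe difference of Vcam1 at 4 months was -1.91 on the log2(CPM + 1) scale, opposite in sign to ND, 1 and 2 months (1.47, 1.09 and 0.40). The same held for Itih4, with -3.03 at 4 months against 2.66, 1.65 and 1.05. Cebpb ran the other way, with 0.98 at 4 months against -0.49, -0.27 and -1.25. With 1 library a group the change of sign was not tested. The KO library of 4 months is also the one with 2276 CPM of contractile and 27108 CPM of cartilage markers, and the part of that in these 3 differences was not tested.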

How the results depend on the processing

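The number of genes that passed between genotypes, 14 with all libraries, was 5 with UMI sums as log2(CPM + 1), 9 with a pseudocount of 0.1, 4 with trimmed-mean factors, 9 with cells thinned to 1 depth and 8 among genes listed in all libraries, and ran from 0 to 240 with 1 diet left out. The common slope passed for 514 genes, for 1346 with the other kind of table, for 1 with UMI sums, and for 0 with a pseudocount of 0.1, trimmed-mean factors, thinned cells, HFD against ND or ranks of time. With 1 library left out it passed for 0 to 1046 genes, and the difference of slopes for 0 to 10. Within KO 2084 genes passed, against 620 with thinned cells, 87 with ranks of time and 0 to 3314 with 1 library left out. Thinning also moved the contractile comparison to 2394 genes, against 4035. The cause of these moves was not tested.

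Some effects on members that had not passed changed sign. With UMI sums, a pseudocount of 0.1 and trimmed-mean factors, the genotype effect was 0.196, 0.210 and 0.253 for Cxcl1 and -1.42, -2.24 and -1.34 for Lcn2. In the same order the slope difference of Osmr was -0.0586, -0.0659 and -0.0067, and the Apoe slope of Nfkbia 0.00218, 0.00217 and 0.00955. Vcam1 had a genotype effect of -0.0066 with thinned cells, and Itih4 an Apoe slope of -0.0185 with the other table. Cebpb had a common slope of 0.0075 with trimmed-mean factors and a difference of 0.0999 for HFD against ND.

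With 1 diet left out the genotype effect ran from -0.111 to 0.022 for Cxcl1, -0.041 to 0.241 for Vcam1, -0.069 to 0.259 for Lcn2 and -0.559 to 0.055 for Cebpb. With 1 library left out the common slope of Cebpb ran from -0.169 to 0.129. The slope difference ran from -0.224 to 0.056 for Cxcl1, -0.380 to 0.136 for Vcam1, -0.565 to 0.113 for Nfkbia, -0.063 to 0.303 for Lcn2, -0.157 to 0.460 for Cebpb, -0.013 to 0.088 for Osmr and -0.611 to 0.142 for Tnfrsf12a. The KO slope ran from -0.059 to 0.369 for Vcam1, -0.274 to 0.033 for Nfkbia and -0.105 to 0.128 for Cebpb. The Apoe slope ran from -0.204 to 0.384 for Nfkbia, -0.360 to 0.257 for Cebpb, -0.047 to 0.263 for Itih4 and -0.520 to 0.200 for Tnfrsf12a. The genotype comparison pairs KO with Apoe by diet, and the contractile comparison pairs the cells within each library. No further paired analysis was possible because each group is 1 library with a single replicate number. Counting error was at most 15.0% of a member's level.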
